A study of Mus musculus with 18 samples.

Results

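The 10 genes described here are the D-type cyclins Ccnd1, Ccnd2 and Ccnd3, the E-type cyclins Ccne1 and Ccne2, the kinases Cdk2, Cdk4 and Cdk6, and the inhibitors Cdkn1a (p21) and Cdkn1b (p27). They were taken by gene name from the 55385 genes of the count and RPKM tables, with no cut on their values, though earlier results of these data were known when they were chosen. Poly(A) RNA of adult mouse spleen was sequenced in 18 libraries, 6 of each of 3 genotypes, with 3 males and 3 females in each. Dp16 mice carry 3 rather than 2 copies of an interval of chromosome 16, a model of trisomy 21. Dp16_2xIFNRs mice carry that interval too, but the labels describe the dosage of their interferon receptors as normalized. WT mice are C57BL/6J; the labels give no strain for the other genotypes and no treatment for any. The extra copy is present in every cell of the animal, so a difference in whole spleen is not tied to one cell type. None of the 10 genes lies in the extra interval, taken as chromosome 16 positions 75540514 to 97962622 (GRCm38), so each has the normal copy number of 2 in all 3 genotypes. The age label reads 17.1 to 18 in Dp16 and WT and 17.7 to 18 in Dp16_2xIFNRs, and its unit is not interpreted here.

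In the G1 phase of the cell cycle, D-type cyclins bind Cdk4 or Cdk6, and E-type cyclins later bind Cdk2. The active kinases phosphorylate the retinoblastoma protein and its relatives, which releases E2F transcription factors and lets the cell enter S phase. Cdkn1a and Cdkn1b bind these complexes and hold Cdk2 back, and the Ink4 inhibitors act on Cdk4 and Cdk6. The mouse spleen holds resting lymphocytes beside dividing red cell precursors, and Ccnd3 is the D-type cyclin known for its role in the last divisions of red cell precursors.

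Library totals ran from 33998427 to 53021480 counts, and all 10 genes passed the filter on low counts that left 18634 genes. Levels are given as CPM (counts scaled to a common library size with TMM factors) where a gene is compared between genotypes, and as the authors' RPKM, which divides by gene length, where genes are compared with each other. Differences are log2 fold changes with standard errors from edgeR's quasi-likelihood test over all 18 libraries, with p-values adjusted by Benjamini-Hochberg over all 18634 genes and called below 0.05. Nothing in the labels says more of how the 6 libraries of a group were obtained than that they are separate samples, so p-values measure the spread between those samples. The labels' descriptions carry a code of unstated meaning that some libraries share across genotypes. Dp16 replicate 2, Dp16_2xIFNRs replicate 4 and WT replicate 4 share one, and there are 4 further pairs. They are Dp16_2xIFNRs replicate 2 with Dp16 replicate 1, Dp16_2xIFNRs replicate 6 with Dp16 replicate 3, Dp16_2xIFNRs replicate 3 with WT replicate 3, and Dp16_2xIFNRs replicate 5 with WT replicate 6. The block correlation for that code was 0.165. Markers of B cells, T cells and red pulp macrophages were present in every genotype, with no listed marker at 0 in all libraries. WT replicate 4 and 3 other libraries (Dp16 replicates 2 and 3, Dp16_2xIFNRs replicate 5) had over 4% of their counts on Gm42418, a locus lying over ribosomal RNA sequence, against 0.691% to 2.94% in the rest. Spleen RNA comes from many cell types, and fewer cells of a type cannot be told apart from less RNA per cell.

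Of the 10 genes, 8 differed between Dp16 and WT. Ccnd3, Ccne1, Ccne2, Cdk2, Cdk4 and Cdkn1a were higher in Dp16, Ccnd1 and Ccnd2 were lower, and Cdk6 and Cdkn1b did not pass the test. Of all genes tested, 29.8% were called in that comparison, 16.6% higher and 13.2% lower. The median log2 fold change was 0.41 over the 10 genes and -0.01 over all genes. In Dp16_2xIFNRs vs WT, 6 of the 10 were called, with Ccnd3, Ccne1, Ccne2, Cdk2 and Cdk4 higher and Ccnd2 lower. There 31.4% of all genes were called, 17.3% higher and 14.2% lower, and the medians were 0.30 for the 10 genes and -0.01 for all genes. Without WT replicate 4, 7 and 6 of the 10 genes were called in the comparisons of Dp16 and of Dp16_2xIFNRs with WT. Of all genes, 4779 and 5086 were called there, against 5553 and 5860 with all libraries. Without the 4 libraries rich in Gm42418 the counts were again 7 and 6 of the 10, with 4176 and 4343 of all genes. In CPM, 5 of the 10 genes had ranges that did not overlap between Dp16 and WT, against 12.8% of all genes tested. Between Dp16_2xIFNRs and WT it was 4 of the 10, against 12.6% of all genes. Both comparisons with WT use the same 6 WT libraries, so their likeness is not independent evidence. The direct comparison, Dp16_2xIFNRs vs Dp16, called 0 of the 10 genes, against 0.0215% of all genes (4 of 18634), 0% higher and 0.0215% lower.

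**Figure D1:**
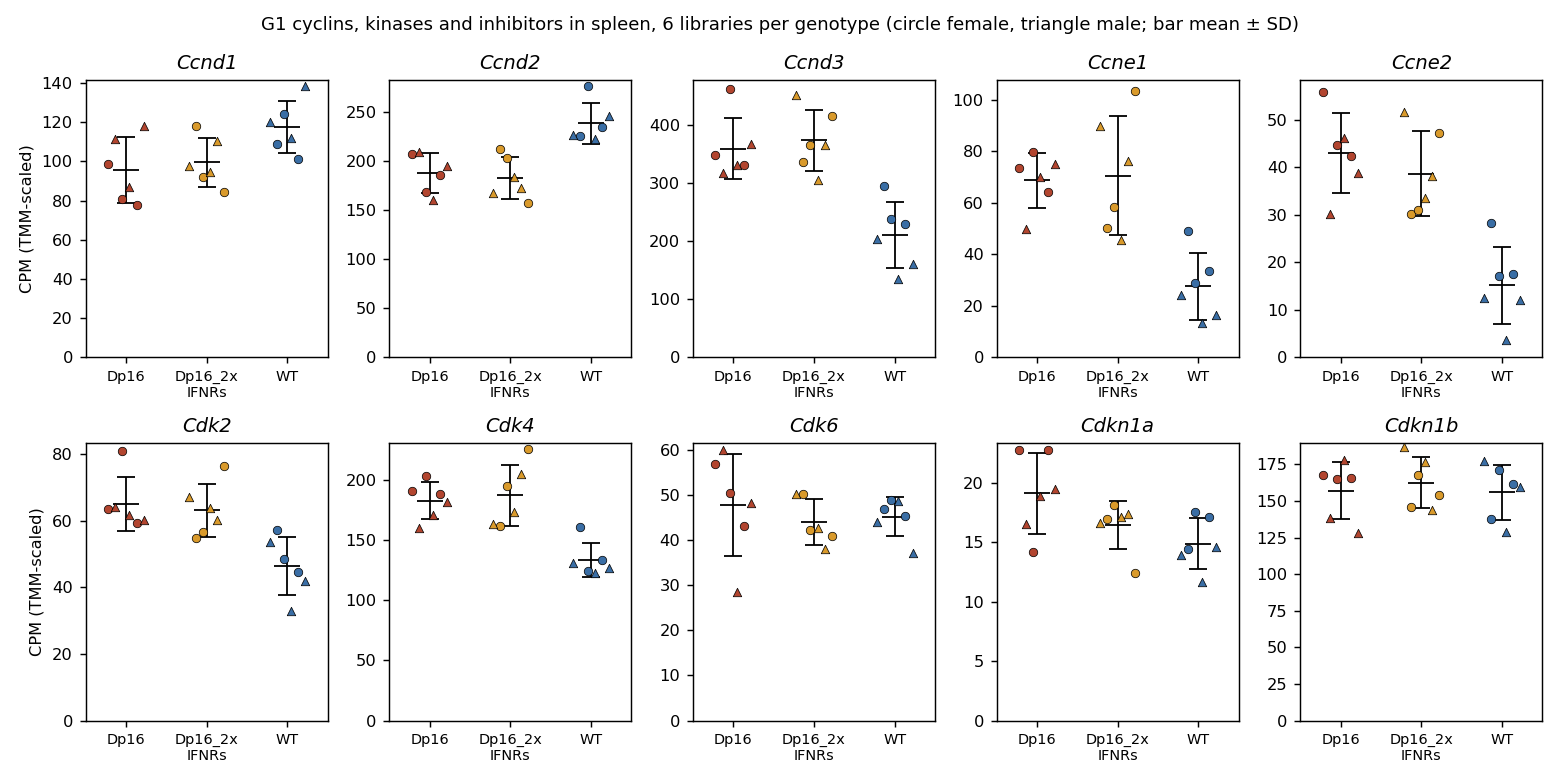
Level of each gene in CPM (TMM-scaled, y axis from 0) in the 6 libraries of Dp16, Dp16_2xIFNRs and WT. Circles are females, triangles are males, and bars give the mean ± SD. Ccnd3 and Ccne2 were above all WT libraries in every Dp16 and Dp16_2xIFNRs library, and Ccnd2 was below all WT libraries in both. Of all genes tested, 12.8% did not overlap between Dp16 and WT and 12.6% between Dp16_2xIFNRs and WT.

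The D-type cyclins did not move together. Ccnd3 was higher in both genotypes with the extra interval, while Ccnd2 was lower in both and Ccnd1 was lower in Dp16. Ccnd3 (ENSMUSG00000034165.16, chromosome 17, 47505051 to 47599691, plus strand, GRCm38) is the D-type cyclin of lymphocyte precursors and red cell precursors. Its level in Dp16 had a lowest, median and highest value of 318, 340 and 462 CPM. In Dp16_2xIFNRs the corresponding values were 306, 366 and 452 CPM, and in WT they were 134, 217 and 294 CPM. All 12 libraries with the extra interval were thus above all 6 WT libraries, with WT replicate 4 the lowest library and Dp16 replicate 3 the highest. The log2 fold change was 0.79 ± 0.13 in Dp16 vs WT (edgeR adjusted p = 0.000246) and 0.86 ± 0.13 in Dp16_2xIFNRs vs WT (edgeR adjusted p = 0.000129), which correspond to 1.73-fold and 1.81-fold.

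Ccnd2 (ENSMUSG00000000184.12, chromosome 6, 127125162 to 127152193, minus strand) is the D-type cyclin that B cells induce when they are activated. It had a lowest, median and highest level of 160, 190 and 209 CPM in Dp16 and of 157, 178 and 212 CPM in Dp16_2xIFNRs, against 222, 230 and 277 CPM in WT. Every library with the extra interval was below every WT library. In the edgeR fit its log2 fold change was -0.35 ± 0.09 in Dp16 vs WT (edgeR adjusted p = 0.00395) and -0.38 ± 0.09 in Dp16_2xIFNRs vs WT (edgeR adjusted p = 0.00163).

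Ccnd1 (ENSMUSG00000070348.5, chromosome 7, 144929931 to 144939925, minus strand), the D-type cyclin most tied to growth factor signals in epithelial and stromal cells, showed a smaller difference. Its lowest, median and highest levels were 77.6, 92.7 and 118 CPM in Dp16, 84.5, 95.9 and 118 CPM in Dp16_2xIFNRs, and 101.1, 116 and 139 CPM in WT. The groups overlapped, and 5 of 6 libraries of each genotype with the extra interval lay below the WT median. Its difference on the log2 scale was -0.30 ± 0.10 in Dp16 vs WT (edgeR adjusted p = 0.0251) and -0.24 ± 0.10 in Dp16_2xIFNRs vs WT (edgeR adjusted p = 0.0766). The call in Dp16 was lost when WT replicate 3 or 6, or Dp16 replicate 3, 4 or 5, was left out, with log2 fold changes of -0.27 to -0.26 and edgeR adjusted p of 0.0636 to 0.0656. Without the 4 libraries rich in Gm42418 it was lost as well, at -0.31 and 0.0848. In Dp16_2xIFNRs vs WT, Ccnd1 was called without Dp16_2xIFNRs replicate 2, at -0.32 and 0.0119. It was also called there, at -0.25 and 0.0411 by limma, when libraries that share a description code were treated as a block.

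Per unit of length, the mix of D-type cyclin RNA was different. Ccnd3 made up 68.1% to 80.2% of summed D-type cyclin RPKM in Dp16 (median 72.5%) and 68.5% to 78.7% in Dp16_2xIFNRs (median 73.1%), against 46.5% to 65.8% in WT (median 56.3%). The summed level itself averaged 195 ± 16.2 RPKM in Dp16, 201 ± 21.8 RPKM in Dp16_2xIFNRs and 161 ± 23.0 RPKM in WT (SD, n = 6 each). The ratio of Ccnd3 to Ccnd2 in a library, in which library scaling cancels, had a median of 5.03 in Dp16 (4.18 to 7.53) and 5.38 in Dp16_2xIFNRs (4.35 to 7.40), against 2.42 in WT (1.66 to 3.59). Neither genotype with the extra interval overlapped WT. The mean log2 ratio was 1.16 higher in Dp16 than in WT and 1.25 higher in Dp16_2xIFNRs than in WT, each with an adjusted p of 0.013 by the exact permutation test (two-sided, 12 ratio comparisons), for which the smallest unadjusted p is 0.00216. Without the 4 libraries rich in Gm42418 the difference in Dp16 vs WT was 1.01 with an adjusted p of 0.0635 by the exact permutation test. Fewer libraries give fewer splits, so the smallest possible p is larger there. In Dp16_2xIFNRs vs WT the ratio passed the threshold in every alternative, with an adjusted p of at most 0.0476 by the same test.

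**Figure D2:**
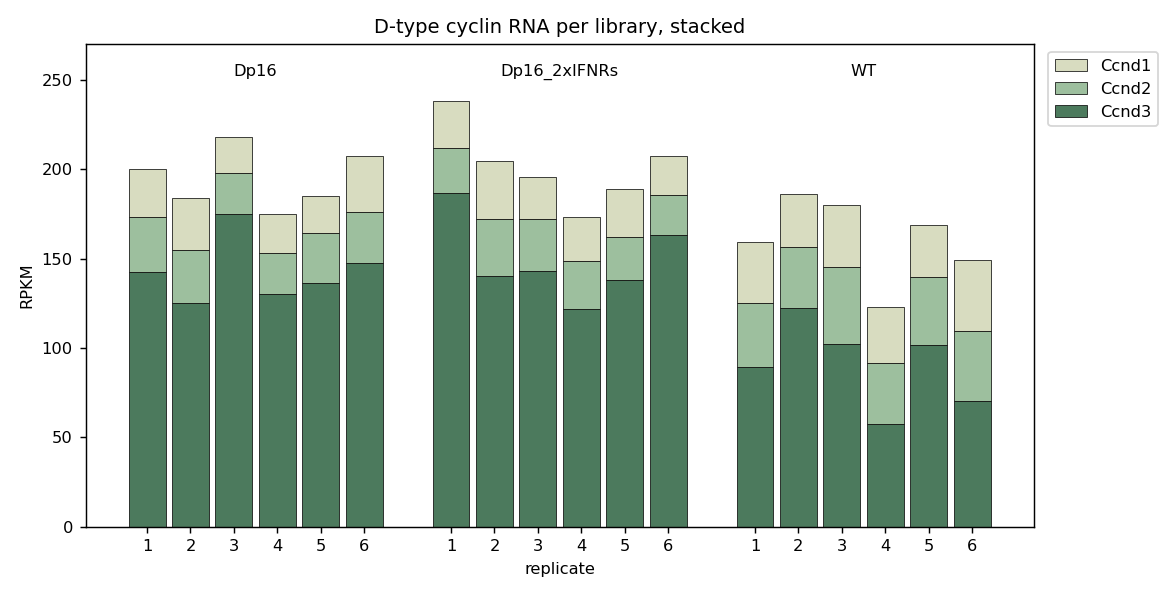
RPKM of Ccnd3, Ccnd2 and Ccnd1 stacked for each of the 18 libraries (y axis from 0, x axis the replicate number within Dp16, Dp16_2xIFNRs and WT). Ccnd3 is the largest share in every library and has a median share of 72.5% in Dp16, 73.1% in Dp16_2xIFNRs and 56.3% in WT.

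The E-type cyclins had the largest differences of the 10 genes, and both moved the same way. Ccne1 (ENSMUSG00000002068.16, chromosome 7, 38097984 to 38107534, minus strand), which activates Cdk2 at the start of DNA replication, had a lowest, median and highest level of 49.8, 71.7 and 79.7 CPM in Dp16. Its values were 45.3, 67.1 and 103 CPM in Dp16_2xIFNRs and 13.3, 26.4 and 49.0 CPM in WT. No Dp16 library overlapped WT, though the lowest (Dp16 replicate 2) was just above the highest WT library (replicate 2), and 1 Dp16_2xIFNRs library was below it. As a log2 fold change, the difference was 1.38 ± 0.27 in Dp16 vs WT (edgeR adjusted p = 0.0012) and 1.42 ± 0.27 in Dp16_2xIFNRs vs WT (edgeR adjusted p = 0.00088), which is 2.60-fold and 2.68-fold.

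Ccne2 (ENSMUSG00000028212.16, chromosome 4, 11191351 to 11204779, plus strand), the other partner of Cdk2 at that step, had levels of 30.2, 43.6 and 55.9 CPM (lowest, median, highest) in Dp16 and 30.3, 35.9 and 51.7 CPM in Dp16_2xIFNRs, against 3.71, 14.8 and 28.3 CPM in WT. All 12 libraries with the extra interval were above all 6 WT libraries. The log2 fold change was 1.56 ± 0.31 in Dp16 vs WT (edgeR adjusted p = 0.0014) and 1.44 ± 0.31 in Dp16_2xIFNRs vs WT (edgeR adjusted p = 0.0023). The WT libraries themselves were widely spread. The coefficient of variation of Ccne1 was 15.5% in Dp16, 32.8% in Dp16_2xIFNRs and 47.1% in WT, and that of Ccne2 was 19.7%, 23.2% and 53.7% in the same order. WT replicate 4 was the lowest and WT replicate 2 the highest of the 6 WT libraries for Ccnd3, Ccne1, Ccne2, Cdk2 and Cdk4 alike. Left out, WT replicate 4 reduced the log2 fold changes in Dp16 vs WT to 1.24 for Ccne1 and 1.34 for Ccne2, both still called.

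Ccne1 RNA exceeded Ccne2 RNA per unit of length in each genotype, with a median share of 71.6% of their summed RPKM in Dp16, 74.3% in Dp16_2xIFNRs and 74.4% in WT. Their sum averaged 46.5 ± 7.21 RPKM in Dp16, 46.03 ± 13.7 RPKM in Dp16_2xIFNRs and 19.4 ± 9.07 RPKM in WT (SD, n = 6 each). The log2 ratio of Ccne2 to Ccne1 differed by 0.27 between Dp16 and WT (adjusted p = 0.401, exact permutation test) and by 0.12 between Dp16_2xIFNRs and WT (adjusted p = 0.652, exact permutation test). A shift of one E-type cyclin against the other was therefore not detected.

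Ccne1 has a start-site window in the RefSeq promoter table (GRCm38.p6), and its bases are shown because Ccne1 had one of the largest differences and E-type cyclin genes are known E2F targets. The stretch lies at chr7:38107535-38107740, minus strand, and covers the bases from 250 to 45 upstream of the RefSeq start, read 5′ to 3′. Capitals mark 3 GC boxes (GGGCGG on either strand), the motif of Sp1-family factors. The stretch ends at an annotated exon, which cuts a further GC box at 49 to 44 bases upstream, left in lower case at its end.
Ccne1: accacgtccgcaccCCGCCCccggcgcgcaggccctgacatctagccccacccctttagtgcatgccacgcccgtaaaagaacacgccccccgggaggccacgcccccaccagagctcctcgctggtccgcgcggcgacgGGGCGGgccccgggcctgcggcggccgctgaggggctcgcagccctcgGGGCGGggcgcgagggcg
Words of the E2F type (TTTCCCGC, TTTGGCGC, TTTGCCGC or TTTCGCGC, either strand) were not found in this window. A GC box occurs in 32.7% of the 32851 windows of the table, each searched over the 250 bases upstream of the start, and an E2F word in 1.86%. The motif search was chosen after the expression differences had been seen, and a match is a run of letters, not a binding site.

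Among the kinases, Cdk2 and Cdk4 were higher with the extra interval and Cdk6 was not. Cdk4 (ENSMUSG00000006728.12, chromosome 10, 127063534 to 127067920, plus strand), the main partner of the D-type cyclins in these data by level, had a lowest, median and highest level of 160, 185 and 203 CPM in Dp16 and of 162, 184 and 225 CPM in Dp16_2xIFNRs, against 123, 129 and 161 CPM in WT. The Dp16 range met that of WT at a single library, WT replicate 2, and the Dp16_2xIFNRs range lay above WT. In the edgeR fit its log2 fold change was 0.45 ± 0.08 in Dp16 vs WT (edgeR adjusted p = 0.000342) and 0.49 ± 0.08 in Dp16_2xIFNRs vs WT (edgeR adjusted p = 0.000156).

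Cdk2 (ENSMUSG00000025358.16, chromosome 10, 128697939 to 128705031, minus strand), the kinase partner of the E-type cyclins, had levels of 59.3, 62.7 and 80.9 CPM (lowest, median, highest) in Dp16 and 54.7, 62.0 and 76.4 CPM in Dp16_2xIFNRs, against 32.8, 46.6 and 57.3 CPM in WT. All Dp16 libraries were above all WT libraries, and the Dp16_2xIFNRs range overlapped that of WT. Its difference on the log2 scale was 0.49 ± 0.11 in Dp16 vs WT (edgeR adjusted p = 0.00234) and 0.45 ± 0.11 in Dp16_2xIFNRs vs WT (edgeR adjusted p = 0.00394). In fold terms Cdk2 was 1.40-fold higher in Dp16 than in WT and Cdk4 1.37-fold higher.

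Cdk6 (ENSMUSG00000040274.11, chromosome 5, 3341485 to 3531008, plus strand), the other partner of the D-type cyclins, had levels of 28.5, 49.3 and 59.9 CPM in Dp16, 37.9, 42.4 and 50.2 CPM in Dp16_2xIFNRs and 37.2, 46.05 and 48.9 CPM in WT. Its groups overlapped, and its spread was widest in Dp16. As a log2 fold change, the difference was 0.08 (95% interval -0.19 to 0.35, edgeR adjusted p = 0.693) in Dp16 vs WT and -0.03 (-0.30 to 0.23, edgeR adjusted p = 0.88) in Dp16_2xIFNRs vs WT. Cdk4 made up a median of 95.6% of the summed RPKM of Cdk4 and Cdk6 in Dp16, 96.0% in Dp16_2xIFNRs and 94.3% in WT. The log2 ratio of Cdk6 to Cdk4 was -0.41 in Dp16 relative to WT (adjusted p = 0.104, exact permutation test) and -0.52 in Dp16_2xIFNRs relative to WT (adjusted p = 0.0519, exact permutation test). Both passed the threshold in some settings that left out 1 library: without Dp16 replicate 2 the first was -0.51 with an adjusted p of 0.0346, and without Dp16_2xIFNRs replicate 1 or 2 the second reached an adjusted p of 0.0346 by the exact permutation test.

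The window upstream of the Cdk4 start is shown because it holds 4 copies of the E-box CACGTG, the letters read by Myc and related factors, which 6.02% of all windows hold at least once. The stretch is chr10:127063285-127063533, plus strand, and runs 5′ to 3′ over the bases from 250 to 2 upstream of the RefSeq start. Capitals mark the E-boxes and 1 GC box.
Cdk4: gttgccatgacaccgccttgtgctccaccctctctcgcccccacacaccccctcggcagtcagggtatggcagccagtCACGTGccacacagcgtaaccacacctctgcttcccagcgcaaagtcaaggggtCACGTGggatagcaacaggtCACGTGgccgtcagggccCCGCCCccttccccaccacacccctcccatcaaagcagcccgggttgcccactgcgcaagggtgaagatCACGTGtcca
The window of Cdk6 held 1 E-box as well, and that of Cdk2 held an E2F word 140 to 133 bases upstream of its start. Both words lie outside the longest exon-free stretch of their window, the last 104 bases for Cdk6 and the last 128 for Cdk2. Annotated exons of Cdk6 cover 57 bases of the first window, and those of Pmel cover 105 bases of the second. Myc itself averaged 89.96 ± 10.1 CPM in Dp16 and 94.4 ± 10.1 CPM in WT (SD, n = 6 each), with a log2 fold change of -0.07 ± 0.08 (edgeR adjusted p = 0.599).

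The inhibitors differed less from WT than Ccnd3 and the E-type cyclins did. Cdkn1a (ENSMUSG00000023067.14, chromosome 17, 29090976 to 29100727, plus strand), the p53 target that halts cells in G1, had a lowest, median and highest level of 14.2, 19.2 and 22.8 CPM in Dp16, 12.4, 17.0 and 18.1 CPM in Dp16_2xIFNRs and 11.7, 14.5 and 17.5 CPM in WT. All 3 groups overlapped, with 5 of 6 Dp16 libraries above the WT median. The log2 fold change was 0.36 ± 0.13 in Dp16 vs WT (edgeR adjusted p = 0.0324) and 0.15 (95% interval -0.11 to 0.41, edgeR adjusted p = 0.407) in Dp16_2xIFNRs vs WT. Leaving out WT replicate 1, 2 or 4, or Dp16 replicate 1, 4, 5 or 6, ended the call in Dp16 vs WT, with log2 fold changes of 0.31 to 0.36 and edgeR adjusted p of 0.0532 to 0.0877. It also ended with upper quartile scaling (0.30, adjusted p = 0.065) and without a filter on low counts (0.33, adjusted p = 0.0672), both in edgeR, and in limma on log2(RPKM + 0.1) (0.23, adjusted p = 0.211).

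Cdkn1b (ENSMUSG00000003031.14, chromosome 6, 134920401 to 134925513, plus strand), the inhibitor that keeps resting lymphocytes out of the cycle, had levels of 128, 165 and 178 CPM in Dp16, 144, 161 and 187 CPM in Dp16_2xIFNRs and 129, 160 and 177 CPM in WT. Its ranges nearly coincided. In the edgeR fit its log2 fold change was 0.01 (95% interval -0.19 to 0.21, edgeR adjusted p = 0.956) in Dp16 vs WT and 0.06 (-0.14 to 0.26, edgeR adjusted p = 0.696) in Dp16_2xIFNRs vs WT. Cdkn1b made up a median of 82.4% of the summed RPKM of both inhibitors in Dp16, 85.4% in Dp16_2xIFNRs and 86.0% in WT. The log2 ratio of Cdkn1a to Cdkn1b differed by 0.34 between Dp16 and WT (adjusted p = 0.104, exact permutation test) and by 0.09 between Dp16_2xIFNRs and WT (adjusted p = 0.626, exact permutation test). Without Dp16 replicate 3 the difference in Dp16 vs WT was 0.44, with an adjusted p of 0.013 by the exact permutation test.

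The window upstream of the first Cdkn1a start is printed because it holds a full p53 site, which with at most 1 mismatch and no spacer 0.0761% of all windows hold. It lies at chr17:29090729-29090975, plus strand, over the bases from 250 to 4 upstream of the RefSeq start, 5′ to 3′, and capitals mark the site, 51 to 32 bases upstream.
Cdkn1a: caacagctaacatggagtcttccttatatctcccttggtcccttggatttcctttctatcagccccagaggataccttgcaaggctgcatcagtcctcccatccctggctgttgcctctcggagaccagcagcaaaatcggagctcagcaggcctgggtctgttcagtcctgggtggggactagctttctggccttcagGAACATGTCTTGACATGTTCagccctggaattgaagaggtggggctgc
Of 26 other p53 target genes, 1 was higher and 1 lower in Dp16 than in WT, with a median log2 fold change of -0.01. Over all genes, 16.6% were higher and 13.2% lower. The higher one was Bax, which opens mitochondria during cell death, at 0.22 ± 0.08 (edgeR adjusted p = 0.0481). Plk2, a polo-like kinase, was lower at -0.83 ± 0.18 (edgeR adjusted p = 0.00129). In Dp16_2xIFNRs vs WT, 1 was higher and 2 were lower. Trp53, which encodes p53, averaged 171 ± 7.10 CPM in Dp16 and 168 ± 10.3 CPM in WT (SD, n = 6 each), with an edgeR adjusted p of 0.803.

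**Figure D3:**
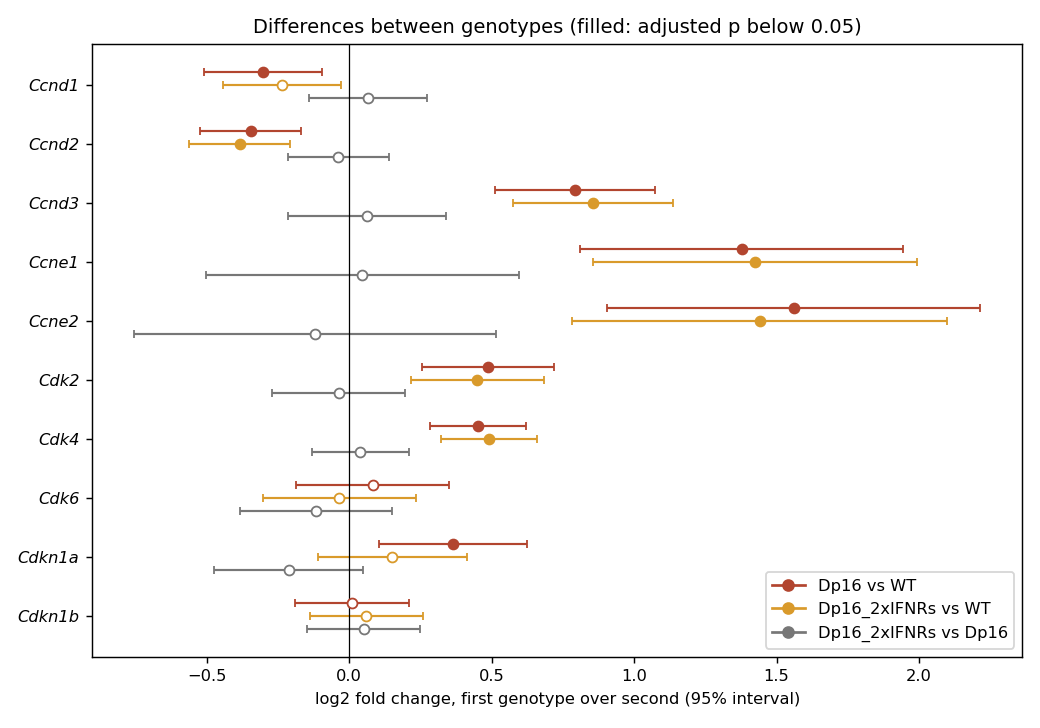
Log2 fold change of each gene with its 95% interval (x axis) for each genotype with the extra interval vs WT and for Dp16_2xIFNRs vs Dp16, filled where the edgeR adjusted p was below 0.05. The intervals of Ccnd1, Ccnd2, Ccnd3, Ccne1, Ccne2, Cdk2 and Cdk4 exclude 0 in both comparisons with WT, though Ccnd1 did not pass the adjusted threshold in Dp16_2xIFNRs vs WT, and all 10 intervals of Dp16_2xIFNRs vs Dp16 include it.

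Compared by length-scaled level, Ccnd3 and Cdk4 led in every genotype. In Dp16 the median RPKM was 139 for Ccnd3, 89.2 for Cdk4, 35.2 for Ccne1, 35.1 for Cdkn1b, 28.2 for Ccnd2, 25.2 for Cdk2, 24.3 for Ccnd1, 13.2 for Ccne2, 6.84 for Cdkn1a and 4.08 for Cdk6. Ranges over the 6 Dp16 libraries did not overlap between Ccnd3 and Cdk4, Cdk4 and Ccne1, Ccnd1 and Ccne2, or Ccne2 and Cdkn1a, and the other neighbours in this order overlapped. In WT the order was Ccnd3 at 95.4, Cdk4 at 67.1, Cdkn1b at 37.9, Ccnd2 at 36.9, Ccnd1 at 32.8, Cdk2 at 20.6, Ccne1 at 14.0, Cdkn1a at 5.61, Ccne2 at 4.88 and Cdk6 at 4.19 RPKM. There the ranges of Cdk4 and Cdkn1b, of Ccnd1 and Cdk2, and of Ccne1 and Cdkn1a did not overlap, and Ccnd3 exceeded Cdk4 in 5 of 6 libraries. Ccne1 stood in the seventh place of 10 in WT, while in Dp16 its median was level with that of Cdkn1b, which it exceeded in 2 of 6 Dp16 libraries. In Dp16_2xIFNRs the median of Ccne1 was 31.5 RPKM, in the fourth place behind Cdkn1b at 33.9 RPKM, and those ranges overlapped.

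Between Dp16_2xIFNRs and Dp16, which differ in the dosage of the interferon receptors, no difference was detected in these genes. By edgeR 0 of the 10 genes were called, 0 had an unadjusted p below 0.05 and 0 were called by DESeq2. The largest difference by size was that of Cdkn1a, at -0.21 (95% interval -0.47 to 0.05), with all 6 Dp16_2xIFNRs libraries below the Dp16 median. For Ccne2 it was -0.12 with a wide interval of -0.75 to 0.52, and for Ccne1 0.05 with -0.50 to 0.60. The intervals of Cdk4 (-0.13 to 0.21) and Ccnd2 (-0.22 to 0.14) were narrow, and that of Ccnd3 was -0.22 to 0.34. No ratio differed between these genotypes, with adjusted p of 0.251 to 0.652 by the exact permutation test.

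Males and females were balanced, and 0 of the 10 genes were called for a sex difference, against 48 of all 18634 genes. A difference between the sexes in the effect of genotype was called by edgeR for 0 of the 10 genes and for 0% of all genes, while 1 of the 10, Ccnd3, had an unadjusted edgeR p below 0.05. For Ccnd3 that p was 0.0442 and the edgeR adjusted p was 1. Among WT animals, males averaged less Ccnd3 than females, at 167 ± 35.3 and 254 ± 35.1 CPM (SD, n = 3 each). For Ccne1 WT males had 17.9 ± 5.55 and WT females 37.1 ± 10.6 CPM, and for Ccne2 they had 9.37 ± 4.90 and 21.0 ± 6.37 CPM. Ccnd3, Ccne1 and Ccne2 had the widest such gaps of the 10 genes in WT. For each of them WT replicate 4, a male, was the lowest WT library and WT replicate 2, a female, the highest. In Dp16 the sexes were closer, with Ccne1 at 64.9 ± 13.4 CPM in males and 72.4 ± 7.90 CPM in females.

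The rest of the pathway is given as gene lists, which were chosen with earlier results of these data known. Of all genes tested, 16.6% were higher and 13.2% lower in Dp16 than in WT. All 15 of the S, G2 and M phase cyclins and kinases were higher in Dp16 than in WT, with a median log2 fold change of 1.30. Among them were the phosphatase Cdc25c, which activates Cdk1 (1.31 ± 0.19, edgeR adjusted p = 5.3e-05), and the spindle checkpoint kinase Bub1b (0.81 ± 0.12, edgeR adjusted p = 8.59e-05). Of 13 retinoblastoma family and E2F genes, 10 were higher and 1 was lower, with a median of 0.76. Tfdp1, the binding partner of E2F factors, was higher by 0.82 ± 0.10 (edgeR adjusted p = 1.51e-05) and E2f1 by 1.03 ± 0.14 (edgeR adjusted p = 3.92e-05). The lower one was Rbl2 (p130), the family member that is abundant in resting cells, at -0.28 ± 0.07 (edgeR adjusted p = 0.0031).

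Of 5 other CDK inhibitors, 2 were higher in Dp16 and 3 did not pass the test, with a median of -0.18. Of the 4 that encode Ink4 proteins, which block Cdk4 and Cdk6, Cdkn2c and Cdkn2d were higher. Cdkn2c (p18) averaged 75.7 ± 8.49 CPM in Dp16 and 36.5 ± 14.7 CPM in WT, with a log2 fold change of 1.09 ± 0.20 (edgeR adjusted p = 0.000596). Cdkn2d (p19) averaged 82.8 ± 15.8 CPM in Dp16 and 40.9 ± 9.85 CPM in WT, with 1.02 ± 0.13 (edgeR adjusted p = 2.38e-05). The other Ink4 genes, Cdkn2a at -0.27 (edgeR adjusted p = 0.573) and Cdkn2b at -0.29 (edgeR adjusted p = 0.443), had means below 3 CPM in both genotypes and did not pass the test.

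Of 16 genes that activate the kinases or turn cyclins over, 6 were higher and 1 was lower, with a median of 0.16. Cks1b, a small subunit of cyclin-dependent kinase complexes that also helps degrade Cdkn1b, was higher by 1.11 ± 0.15 (edgeR adjusted p = 3.26e-05). Cdc25a, which removes inhibitory phosphates from Cdk2, was higher by 0.52 ± 0.09 (edgeR adjusted p = 0.000271). Ambra1, which directs D-type cyclins to degradation, was lower at -0.26 ± 0.07 (edgeR adjusted p = 0.00785). The 20 other cyclins and kinases, most of them in transcription or in post-mitotic roles, gave 1 higher and 3 lower, with a median of -0.10. The higher one was the Mediator kinase Cdk8 (0.26 ± 0.09, edgeR adjusted p = 0.0311), and the lower ones included its relative Cdk19 (-0.23 ± 0.07, edgeR adjusted p = 0.0216) and the transcription kinase Cdk13 (-0.40 ± 0.09, edgeR adjusted p = 0.00268).

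Of 18 upstream signals and transcription factors, 6 were higher and 4 lower, with a median of 0.01. Dyrk1a, a kinase that phosphorylates D-type cyclins and Cdkn1b, lies in the extra interval and averaged 151 ± 13.3 CPM in Dp16 and 143 ± 12.8 CPM in Dp16_2xIFNRs, against 109 ± 4.58 CPM in WT (SD, n = 6 each). Its log2 fold change was 0.46 ± 0.07 in Dp16 vs WT (edgeR adjusted p = 9.25e-05). Gata1, the leading transcription factor of red cell precursors, was higher by 1.65 ± 0.30 (edgeR adjusted p = 0.000855). The lower ones included Klf2 (-0.58 ± 0.10, edgeR adjusted p = 0.000274) and Foxo1 (-0.60 ± 0.11, edgeR adjusted p = 0.00028), factors of resting lymphocytes.

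Dp16_2xIFNRs gave nearly the same counts against the same WT libraries, where 17.3% of all genes were higher and 14.2% lower. There 15 of 15 S, G2 and M genes were higher, 10 E2F and retinoblastoma family genes were higher and 1 lower, 2 other inhibitors were higher, and 5 activation and turnover genes were higher and 1 lower. Of the other cyclins and kinases 0 were higher and 4 lower, and of the upstream signals 5 were higher and 5 lower. None of these 7 lists had a gene called in Dp16_2xIFNRs vs Dp16.

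Markers of several cell types moved with genotype beside these genes. Over all genes, 16.6% were higher and 13.2% lower in Dp16 than in WT. All 25 erythroid markers in the table were higher than in WT in both genotypes with the extra interval, and their summed level was 24282 to 42623 CPM in Dp16 and 23318 to 46074 CPM in Dp16_2xIFNRs, against 6353 to 23046 CPM in WT. Of 18 neutrophil markers 16 were higher in each, with sums of 3329 to 11351, 3901 to 6435 and 581 to 2257 CPM in Dp16, Dp16_2xIFNRs and WT. Of 16 B cell markers 15 were lower in each, with sums of 3435 to 4366, 3559 to 4636 and 5193 to 8026 CPM in the same order. Megakaryocyte markers were higher in 15 of 16 in both comparisons with WT, with sums of 565 to 1684 CPM in Dp16, 505 to 1147 CPM in Dp16_2xIFNRs and 361 to 648 CPM in WT. T cell markers were lower in 4 of 19 in Dp16 vs WT, with sums of 1651 to 2091 CPM in Dp16, 1504 to 2047 CPM in Dp16_2xIFNRs and 1729 to 2378 CPM in WT. In Dp16 vs WT the other lists gave 6 higher of 9 for basophils and mast cells, 4 higher of 13 for red pulp macrophages, 4 higher and 1 lower of 10 for monocytes, 1 higher and 1 lower of 10 for plasma cells, 3 lower of 9 for NK cells and 8 lower of 14 for endothelium and stroma.

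An erythroid score was formed as the mean log2 CPM of the erythroid markers in a library. Its relation to each gene was computed with genotype means removed, so that the differences between genotypes did not enter. Sex means were not removed, so differences between males and females within a genotype can enter these relations. Over the 18 libraries the score went with Ccnd3 at Pearson r = 0.94 (permutation p = 1e-05, the smallest that 100000 resamples can give, adjusted 0.0003) and Spearman rho = 0.93 (adjusted permutation p = 0.00015). For Ccne1 r was 0.95 (permutation p = 2e-05, adjusted 0.0003) and rho 0.94 (adjusted permutation p = 0.00015). Ccne2 had r = 0.88 (permutation p = 0.00013, adjusted 0.0013) and rho = 0.83 (adjusted permutation p = 0.0017), and Cdk2 had r = 0.83 (permutation p = 0.00036, adjusted 0.0027) and rho = 0.76 (adjusted permutation p = 0.0148). Without the 2 libraries farthest from the median score, WT replicates 2 and 4, r was 0.87 for Ccnd3, 0.91 for Ccne1, 0.70 for Ccne2 and 0.66 for Cdk2. Cdk4 reached r = 0.56 (permutation p = 0.0118, adjusted 0.059) and rho = 0.50 (adjusted permutation p = 0.142). For Ccnd1, Ccnd2, Cdk6, Cdkn1a and Cdkn1b r ran from -0.30 to 0.18, and none was called. Of 30 such relations, with erythroid, neutrophil and B cell scores, the only other one called was Cdk4 with the B cell score (r = -0.67, permutation p = 0.0035, adjusted 0.021, and rho = -0.69, adjusted permutation p = 0.0158). These relations were chosen after the differences between genotypes had been seen.

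**Figure D4:**
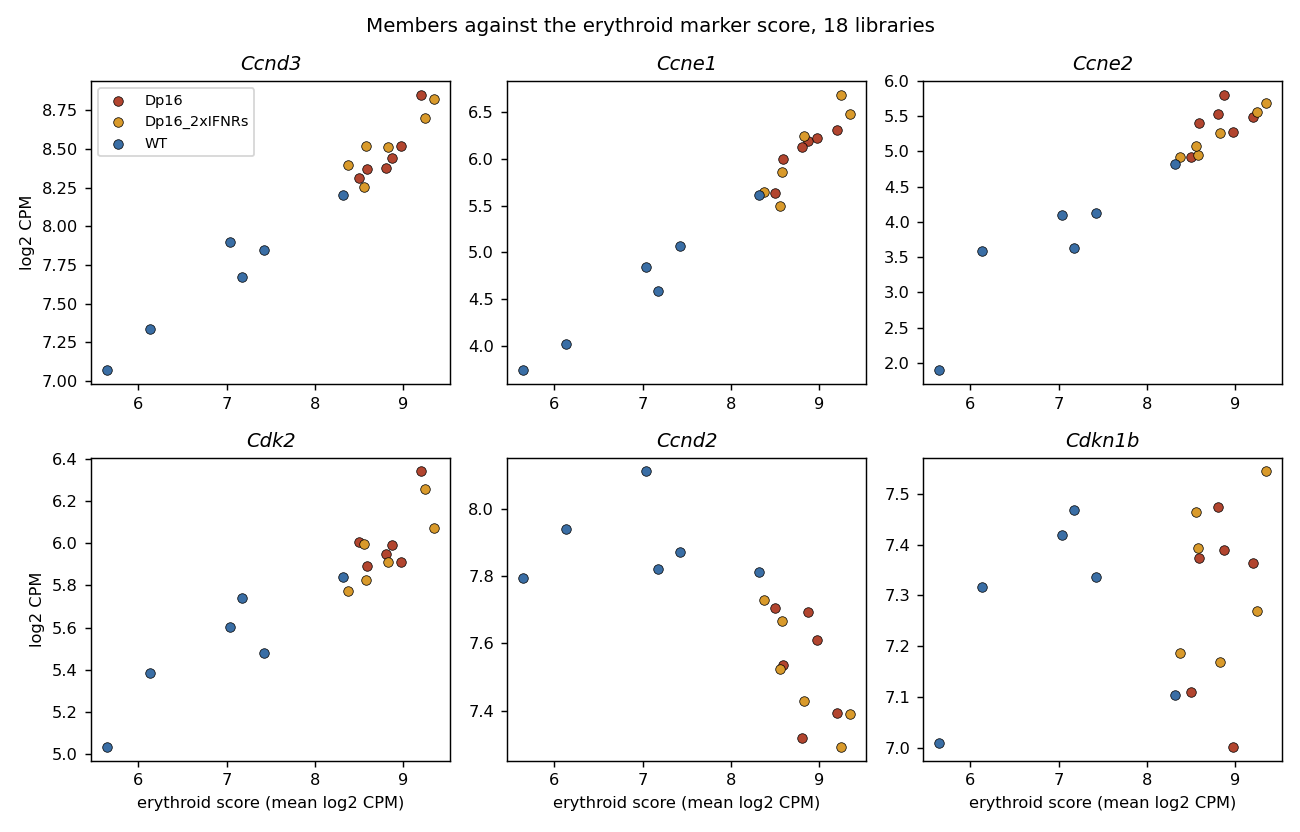
Log2 CPM of Ccnd3, Ccne1, Ccne2, Cdk2, Ccnd2 and Cdkn1b (y axes) against the erythroid marker score (x axis, mean log2 CPM of 25 markers) in 18 libraries coloured by genotype. The WT libraries run from a score of 5.65 (replicate 4) to 8.32 (replicate 2), below all Dp16 libraries (8.50 to 9.20) and all Dp16_2xIFNRs libraries (8.38 to 9.35), and Ccnd3, Ccne1, Ccne2 and Cdk2 are higher where the score is higher.

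The scores do not overlap between WT and the other genotypes, so the markers and the genotype cannot be told apart by a fit that holds both. With the erythroid and neutrophil scores as further terms, 0 of the 10 genes were called in either comparison with WT. In that fit 0 of all genes were called by edgeR in Dp16 vs WT, with 857 at an unadjusted p below 0.05, and the median standard error was 0.460, against 0.154 without the scores. The log2 fold change of Ccne1 in Dp16 vs WT was then 0.00 ± 0.31, that of Ccnd3 0.24 ± 0.21, that of Ccne2 0.36 ± 0.51, that of Cdk4 0.21 ± 0.26 and that of Cdk2 0.43 ± 0.24. Ccnd1 stood at 0.037 ± 0.32, Ccnd2 at -0.044 ± 0.27 and Cdkn1a at -0.0092 ± 0.41.

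Within genotypes the 10 genes fell into blocks. After genotype and sex means were removed, Ccnd3, Ccne1, Ccne2 and Cdk2 correlated at 0.71 to 0.90 with each other over the 18 libraries, with the highest value for Ccnd3 and Ccne1. Ccnd1 and Ccnd2 correlated at 0.78. Ccnd2 ran against Cdk4 (-0.60) and Ccne1 (-0.52). These values describe 18 libraries that share their scaling and cell mixture and carry no test.

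**Figure D5:**
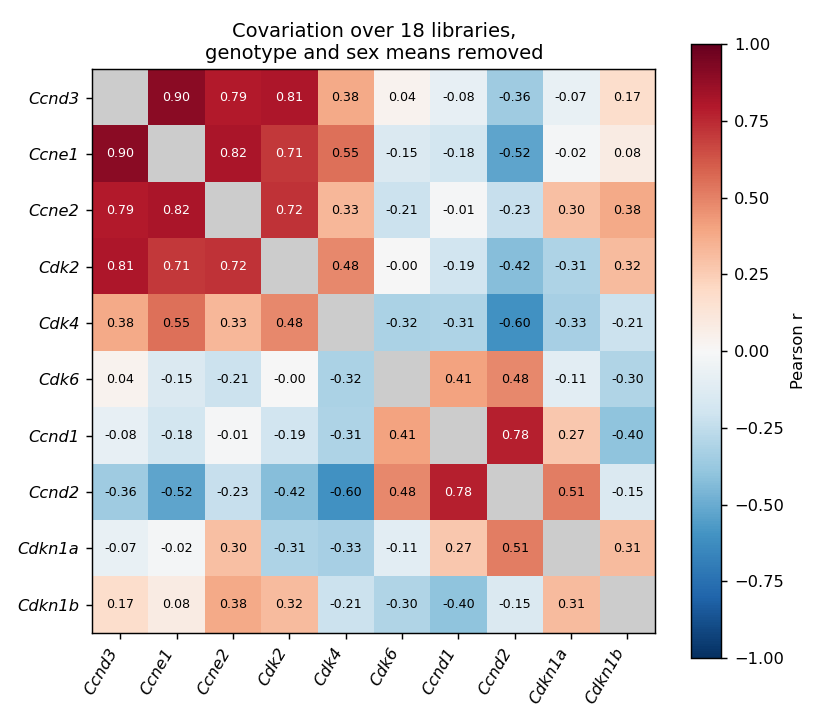
Pearson correlation of log2 CPM for each pair of the 10 genes over 18 libraries after genotype and sex means were removed (colour scale -1 to 1, value printed in each cell). Ccnd3, Ccne1, Ccne2 and Cdk2 form a block of 0.71 to 0.90, and Ccnd1 and Ccnd2 correlate at 0.78.

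The genes most like each member were taken by the same correlation over 18 libraries, among 9930 genes with a mean log2 CPM above 3. For Ccne2 they were Esco2 (0.97), Nusap1 (0.95) and Cdca2 (0.94), which act on chromosomes in S phase and mitosis. Ccne1 was closest to Ybx3 (0.97), March5 (0.96) and Dlgap5 (0.96), and Ccnd3 to Suv39h1 (0.96), Clcn2 (0.96) and Kifc1 (0.95). Cdk2 was closest to Tspo2 (0.87), itself among the erythroid markers, Birc5 (0.87) and Gpaa1 (0.87). All 12 of these neighbours were higher in Dp16 than in WT, with log2 fold changes of 0.36 to 1.60.

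The remaining genes had other company. Cdk4 was closest to Atp5md (0.93) and Cox7b (0.92), genes of mitochondrial energy supply, and to Taldo1 (0.92), an enzyme of the pentose phosphate pathway. Ccnd2 was closest to Stat3 (0.89), Rrbp1 (0.89) and Slc9a3r1 (0.88), and Ccnd1 to Hspa4 (0.90), P2rx7 (0.85) and Syt11 (0.79). Cdk6 went with Wdr33 (0.95), Tpr (0.95) and Htt (0.95), Cdkn1a with Clcn4 (0.89), Pacc1 (0.84) and Adam17 (0.84), and Cdkn1b with Crlf3 (0.87), Ivns1abp (0.86) and N4bp2l2 (0.85). None of these nearest genes of Cdk6 was called in Dp16 vs WT. Atp5md, Taldo1 and Cox7b were higher there, and Stat3 and P2rx7 were lower. Near Cdkn1b, which was not called, Crlf3 (-0.23, edgeR adjusted p = 0.0223) and Ivns1abp (-0.31, edgeR adjusted p = 0.00504) were lower. Clcn4 was lower (-0.29, edgeR adjusted p = 0.00367), though Cdkn1a was higher. The other genes nearest to these members were not called.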

How the data were processed

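Reads per gene were deposited by the authors as whole-number counts. Per the submitters' processing notes, the tools were bcl2fastq, FastQC 0.11.5, HISAT2 2.1.0, SAMtools 1.5 and HTSeq 0.6.1, and the build was GRCm38, with no order or role given. Libraries are strand-specific per the labels' protocols, and whether strand was used in counting is not given in the sources used here. Deposited RPKM values equal these counts per library total and gene length, as the authors scaled them. Recomputing them for 11538 genes that had 100 or more counts in every library gave a largest relative deviation of 8.9e-16. Gene positions come from GENCODE vM21 (GRCm38), matched by identifier for 99.6% of genes, and promoter windows from RefSeq (GRCm38.p6), which matched 7 of the 10 genes in 9 windows. Ccnd1, Ccnd2 and Ccne2 had none.

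The 10 genes and all gene lists were chosen with earlier results of these data known. Counts were filtered with filterByExpr by genotype (18634 genes kept), scaled by TMM and fitted with edgeR 4.0.16 (quasi-likelihood, robust, R 4.3.3) on genotype and sex over 18 libraries. The script was tested on simulated data. Ratios of RPKM were compared by two-sided exact permutation tests over 924 splits of 12 libraries (R 4.3.3), adjusted over 12 tests. Scores are mean log2 CPM values (prior count 2), and their relations to the genes used 100000 permutations within genotype. Those relations were ranked and adjusted with SciPy 1.17.1. A count of 0 allows up to 3 counts, 0.0566 to 0.0882 CPM, for counting error only. Genes named from the lists are the 2 called ones with the smallest p in each direction in Dp16 vs WT, besides Dyrk1a. Myc and Trp53 were chosen after their values were seen.

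Alternatives were other scalings, DESeq2 1.42.0, limma 3.58.1 on log2 RPKM, other filters, terms, blocks and thresholds, and omission of genes or libraries. Sample numbers in the titles are not said to pair animals. Libraries of the same genotype were distinct: across 45 pairs, chi-square divided by its degrees of freedom was 35.1 to 200.4.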

Additional observations from a re-analysis of the deposited data

Results flagged for a closer look

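In 4 of the 30 groups of 6 libraries (10 genes in 3 genotypes), 1 library stood far from the other 5 by Dixon's test, which chance flags in about 1 in 20 groups. Dp16 replicate 3 had the highest Ccnd3 of its group at 461.9 CPM, with the next library at 368 CPM, and also the highest Cdk2 at 80.94 CPM, with the next at 64.2 CPM. That library had the highest erythroid score of Dp16, 9.20. WT replicate 2 had the highest Cdk4 of WT at 160.9 CPM, with the next at 134 CPM, and the highest erythroid score of WT, 8.32. Dp16_2xIFNRs replicate 6 had the lowest Cdkn1a of its group at 12.4 CPM, with the next at 16.6 CPM. The part of these scores in the levels was not tested.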

How the results depend on the processing

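Over 35 alternatives, each library left out in turn included, Ccnd2, Ccnd3, Ccne1, Ccne2, Cdk2 and Cdk4 were called in the same direction in both comparisons with WT. With 1 library left out, 6 to 8 of the 10 genes were called in Dp16 vs WT and 6 to 7 in Dp16_2xIFNRs vs WT, and 0 in Dp16_2xIFNRs vs Dp16. The exception was the fit with erythroid and neutrophil score terms, where 0 of the 10 were called in either comparison with WT, against 8 and 6. There Ccnd1 stood at 0.037 and Cdkn1a at -0.0092 in Dp16 vs WT. Its standard errors were about as large as many of the differences, so it sets no bound on them.

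Ccnd1 in Dp16_2xIFNRs vs WT was called with upper quartile scaling (-0.30, edgeR adjusted p = 0.0266), in limma on log2(RPKM + 0.1) (-0.36, adjusted p = 0.0171) and with the description code as a random block (-0.25, adjusted p = 0.0411). Calls over all genes in Dp16 vs WT were higher in Dp16 for 55.7%, against 43.4% with upper quartile scaling and 36.1% in limma on log2(RPKM + 0.1). The median log2 fold change of all genes there was -0.13, to which the changes are relative; in Dp16_2xIFNRs vs WT the shares were 54.9%, 43.7% and 36.9%. Cdk6 and Cdkn1b, which were not called, changed sign between settings.

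Without the 4 libraries rich in Gm42418 the log2 ratio of Ccnd3 to Ccnd2 was 1.01 higher in Dp16 than in WT (adjusted p = 0.0635), and that of Cdkn1a to Cdkn1b was 0.45 higher (adjusted p = 0.0476), by the exact permutation test. These p-values rest on fewer splits than those with all libraries. With 1 library left out, the ratio of Cdk6 to Cdk4 ranged from -0.51 to -0.28 in Dp16 vs WT and from -0.60 to -0.45 in Dp16_2xIFNRs vs WT, and that of Cdkn1a to Cdkn1b from 0.28 to 0.44 in Dp16 vs WT; the cause was not tested. Counts of called genes moved beyond 1.5 times for the other cyclins and kinases (4 in Dp16 vs WT, 2 to 8 over the alternatives; 4 in Dp16_2xIFNRs vs WT, 3 to 7), the p53 targets (2, with 1 to 6; 3, with 1 to 5) and the E2F group in Dp16_2xIFNRs vs WT (11, with 7 to 11).

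Sample numbers are shared between genotypes, and a replicate block left 8, 6 and 0 of the 10 genes called (the comparisons of Dp16 and of Dp16_2xIFNRs with WT, then of Dp16_2xIFNRs with Dp16), with 5534, 5796 and 4 of all genes. Same-numbered libraries had a mean correlation of 0.02 over 18 pairs (-0.13 to 0.20), against -0.0038 for libraries of different numbers. Of 18 libraries, 6 correlated best with their own number. These values kept differences between the sexes, which some numbers mix, so they do not settle whether the numbers pair samples. Outside the fit with score terms, Ccnd1 and Cdkn1a were the genes of the 10 whose calls changed in any setting run.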
